A study of Xenopus tropicalis with 132 samples.

Results

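Animal caps carrying Irx3 together with Otx2 were compared with caps carrying Otx2 alone, which asks what a second homeodomain factor adds to the first. The comparison rests on 4 libraries of bulk RNA-seq, Irx3+Otx2 1 and 2 against Otx2 1 and 2, chosen by their sample titles from 16 bulk RNA-seq libraries and 132 samples in all. The animal cap is the ectodermal roof of the blastula, cut out of the embryo and cultured, here from Xenopus tropicalis at stage 10.5, the early gastrula. The caps carried mRNA of Irx3+Otx2 or of Otx2, and 2 further groups of 2 libraries served for reference, Irx3 alone and a group named WI, whose meaning the labels do not give. The Otx2 group is named by its sample titles, while the series design text names Irx3 and the pair but not Otx2 alone. No dose of mRNA, clutch of embryos or number of caps is given. The p-values and errors (SE) rest on the spread between replicate libraries of all 8 bulk groups. They do not rest on the 4 compared libraries alone, and this spread may be technical.

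Otx2 is a homeodomain factor of the head organizer and of the forebrain and midbrain, and it is required for head development in vertebrates. Irx3 belongs to the Iroquois family of homeodomain factors, which pattern the neural plate from the midbrain backwards and act early in neural specification in Xenopus. Caps left to themselves form epidermis, and they turn to neural tissue when BMP signalling is blocked, for example by chordin (chrd) from the organizer.

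Both introduced genes were abundant where the titles place them. Introduced mRNA and the embryo's own transcripts are counted together. In CPM, counts scaled to a common library size, irx3 stood at 1618 and 1363 in Irx3+Otx2 1 and 2, against 9.06 and 5.26 in Otx2 1 and 2. In the reference groups irx3 stood at 1.67 and 5.37 CPM in WI and at 1862 and 200 CPM in Irx3. The 2 groups did not overlap, and irx3 was higher in the pair by 7.71 on the log2 scale (SE 1.04). For otx2 the level was 829 and 1548 CPM in the pair and 606 and 419 CPM in Otx2, against 31.8 and 34.3 CPM in WI. Both pair libraries thus held more otx2 than both Otx2 libraries, although the difference of 1.21 (log2, SE 1.06, unadjusted p 0.278) was about as large as its error. That error takes in the replicates of all groups, even ones such as WI and uneven ones such as Irx3 (46.4 and 5.12 CPM of otx2). The part of this unequal otx2 level in the results that follow was not tested. Per transcript length, irx3 exceeded otx2 in both pair libraries, at 614.5 against 256 TPM (the deposited length-scaled unit) in Irx3+Otx2 1 and at 1173 against 1088 TPM in Irx3+Otx2 2.

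The 4 libraries held total counts of 5327930 to 9218360. Genes listed for the non-neural ectoderm stood mostly under WI in the 4 libraries, and a few stood above it. Summed over the tested genes of the list, the level was 3666 and 2261 CPM in the pair and 3819 and 2550 CPM in Otx2. In WI that sum was 13153 and 8453 CPM. Above WI were foxi2 (205 to 258 CPM against 122 and 159 CPM), cebpb (37.8 to 86.8 CPM against 11.7 and 17.1 CPM) and cebpa (5.23 to 23.3 CPM against 4.18 and 1.65 CPM). Many more were under WI, of which examples follow. The keratin gene krt8 stood at 198 to 283 CPM in the 4 libraries against 790 and 784 CPM in WI, while gata2 stood at 2.03 to 13.6 CPM against 840 and 469 CPM, dlx3 at 2.27 to 8.38 CPM against 91.1 and 56.4 CPM, and gata3 at 0.411 to 0.872 CPM against 32.05 and 10.3 CPM. By the library numbers in the file names, Irx3+Otx2 1 (number 6) carries one of the first numbers, and Irx3+Otx2 2 (14), Otx2 1 (13) and Otx2 2 (16) carry numbers of the last run, 12 to 16. These numbers are not a stated batch. Irx3+Otx2 1 stood apart: 27.4% of 14176 tested genes differed more than 2-fold from its own replicate, against 7.64% and 13.8% between Irx3+Otx2 2 and the Otx2 libraries. Irx3+Otx2 2 therefore lay nearer to both Otx2 libraries than to its replicate. Between Otx2 1 and Otx2 2 the share was 13.6%, so Irx3+Otx2 2 lay nearer to Otx2 1 (7.64%) than Otx2 2 did. The 50 most abundant targets took 21.5% of the counts in Irx3+Otx2 1, 10.8% in Irx3+Otx2 2, 17.4% in Otx2 1 and 10.9% in Otx2 2. Of the 4, Irx3+Otx2 1 had the fewest detected targets, 17478 against 18179 to 18957, at the largest total count. Its TMM scaling factor was the lowest (0.794, against 1.248 in Irx3+Otx2 2). Its median target length minus effective length was 246.1, against 197.9 to 203.1 in the other compared libraries. In libraries numbered 1 to 5 this median was 209.91 in Foxb1 1 and 247.57 to 276.98 elsewhere. The part of these differences in the genes high in Irx3+Otx2 1 was not tested. For many genes the difference of Irx3+Otx2 2 alone from both Otx2 libraries is given too, a comparison in which all libraries carry numbers of this last run. It describes size only and is not an independent check. For genes chosen for no overlap, the choice fixed its sign, and Irx3+Otx2 2 also entered the p used to choose genes.

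**Figure D1:**
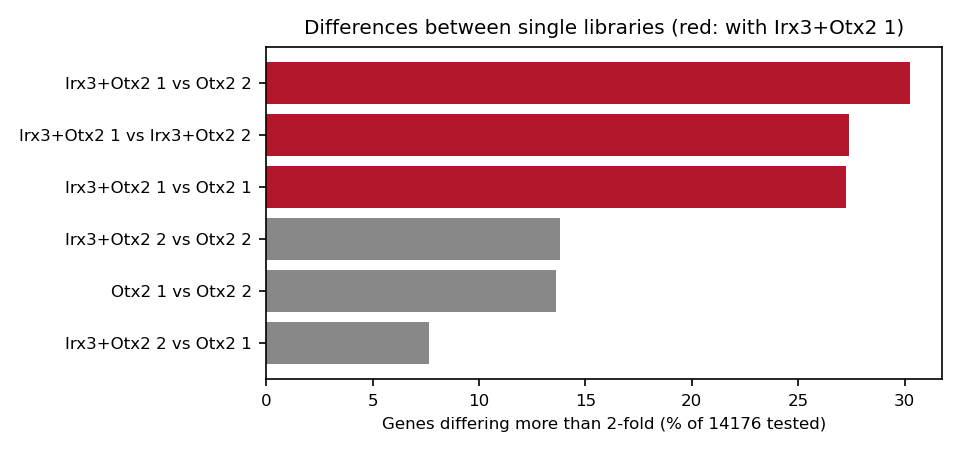
Share of 14176 tested genes, in percent, that differed more than 2-fold between single libraries (horizontal axis), for the 6 pairs of the 4 libraries; red bars involve Irx3+Otx2 1. The 3 red bars reach 27.3% to 30.2% and the 3 grey bars 7.64% to 13.8%.

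Over all genes, edgeR's quasi-likelihood test called 0 of 14176 genes (0%) at a Benjamini-Hochberg adjusted p under 0.05. The smallest adjusted p was 0.107, that of irx3 itself. At an unadjusted p under 0.05 stood 668 genes (4.71%), fewer than the 5% that this threshold gives where nothing differs, of which 510 were higher in the pair (3.6%) and 158 lower (1.11%). DESeq2 called 26 of 13626 genes (0.191%), 22 higher and 4 lower, and gave 850 genes at an unadjusted p under 0.05. In both pair libraries above both Otx2 libraries stood 1875 genes (13.2%), and in both below 2221 (15.7%). The median log2 change of all genes was −0.03, and it was −0.20 when libraries were scaled by total counts alone. Because the main test called no gene, the genes below are described as higher or lower with their values, and each p printed for a gene is edgeR's unadjusted p unless DESeq2 is named. A permutation of 2 against 2 libraries allows no two-sided p below 0.333.

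Genes of the forebrain and midbrain were among those with the highest changes. The 12 highest changes were taken among genes with symbols, a mean log2 CPM of at least 2, an unadjusted p under 0.05 and no overlap. This choice, from 202 such genes higher in the pair, left out less abundant genes such as en2 (7.24), crisp1 (5.37) and neurod1 (5.21). The 12 include irx3 itself. Of them, 5 belonged to a list of forebrain and midbrain genes, which holds 23 of the 14176 tested genes: dmbx1, fezf2, hesx1, emx2 and otx1. Among these, dmbx1 and fezf2 passed the filter on low counts only through the groups compared. The share of list genes among the 202 was not taken. The midbrain homeobox gene dmbx1 stood at 246 and 75.3 CPM in the pair and at 10.1 and 4.43 CPM in Otx2. Its groups lay apart by 4.48 (log2, SE 0.75, p 5.3e-05; DESeq2 adjusted p 1.7e-06), and by 3.38 with Irx3+Otx2 2 alone. In WI dmbx1 stood at 0.836 and 1.65 CPM and in Irx3 at 0 and 0.177 CPM. The homeobox repressor hesx1, which marks the anterior neural ridge and pituitary primordium, stood at 65.6 and 20.9 CPM in the pair and at 4.1 and 5.03 CPM in Otx2. Its difference was 3.23 (SE 0.84, p 0.0022; DESeq2 adjusted p 0.039), and 2.19 with Irx3+Otx2 2 alone.

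Further forebrain genes of the list were also higher in both pair libraries. Expression of otx1, a paralogue of otx2, was 192 and 89.1 CPM in the pair against 13.3 and 22 CPM in Otx2, a difference of 2.98 (SE 0.87). The dorsal forebrain gene emx2 stood at 22.7 and 17.2 CPM against 2.22 and 2.03 CPM (3.22, SE 0.93). The forebrain zinc finger gene fezf2 stood at 10.3 and 15.4 CPM against 1.71 and 0.838 CPM (3.33, SE 1.06). With Irx3+Otx2 2 alone these 3 differences were 2.33, 3 and 3.59. The eye field and forebrain gene six3 stood at 17.1 and 26.3 CPM against 6.67 and 5.03 CPM, and sp8, a zinc finger factor of the forebrain, at 24.5 and 12.1 CPM against 6.33 and 4.91 CPM. Their differences were 1.89 (SE 0.77) and 1.70 (SE 0.62), and 2.17 and 1.105 with Irx3+Otx2 2 alone. The groups overlapped for lhx5, the most abundant gene of the list, at 411 and 288 CPM against 323 and 163 CPM, and for barhl2, gata3, pou3f3, arx and pax5.

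Of the genes of the midbrain and its border with the hindbrain, en2, wnt1 and pax2 were higher in both pair libraries, at low counts. The homeobox gene en2 had 492 counts over the 2 pair libraries and 3 over the 2 Otx2 libraries, 164 times as many (exact 95% interval from counting error, 55.9 to 799). Its level in the pair was uneven, at 60.5 and 7.27 CPM, and its fitted difference of 7.24 was 5.04 with Irx3+Otx2 2 alone. The signal wnt1 stood at 13.8 and 5.82 CPM against 0.684 and 1.08 CPM (3.43, SE 1.01; 2.68 with Irx3+Otx2 2 alone), and the paired-box gene pax2 at 10.8 and 5.82 CPM against 0.513 and 1.79 CPM (2.79, SE 0.85). None of these 3 genes was called by DESeq2, and en2 and wnt1 passed the filter only through the groups compared. The border gene pax5 overlapped, at 2.19 and 3.93 CPM against 4.62 and 2.63 CPM (−0.24, SE 0.85). The forebrain gene rax, by contrast, stood at 0.137 and 0.582 CPM in the pair and at 4.28 and 0.838 CPM in Otx2, a difference of −2.75 (SE 1.40, p 0.074).

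Of 35 forebrain and midbrain genes listed, 23 were tested, with a median change of 1.76; 19 were higher and 4 lower. Some of these, among them dmbx1, en2, fezf2 and wnt1, passed the filter on low counts only through the groups compared, so that the count over tested genes favours a difference. When the filter was applied to the 12 other libraries, 16 of them remained, with a median of 1.41 against −0.04 over 13612 genes. Of these 16, 10 stood in both pair libraries above both Otx2 libraries and 1 below, while over all genes 12.6% stood above and 15.8% below. An unadjusted p under 0.05 was reached by 6 of the 16, all higher, against 3.36% of all genes higher and 1.03% lower. The median over the 23 tested genes was 1.56 without Irx3+Otx2 1 and 1.82 without Irx3+Otx2 2. These 23 include the genes that passed only through the groups compared, and medians of the 16 without single libraries were not taken.

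**Figure D2:**
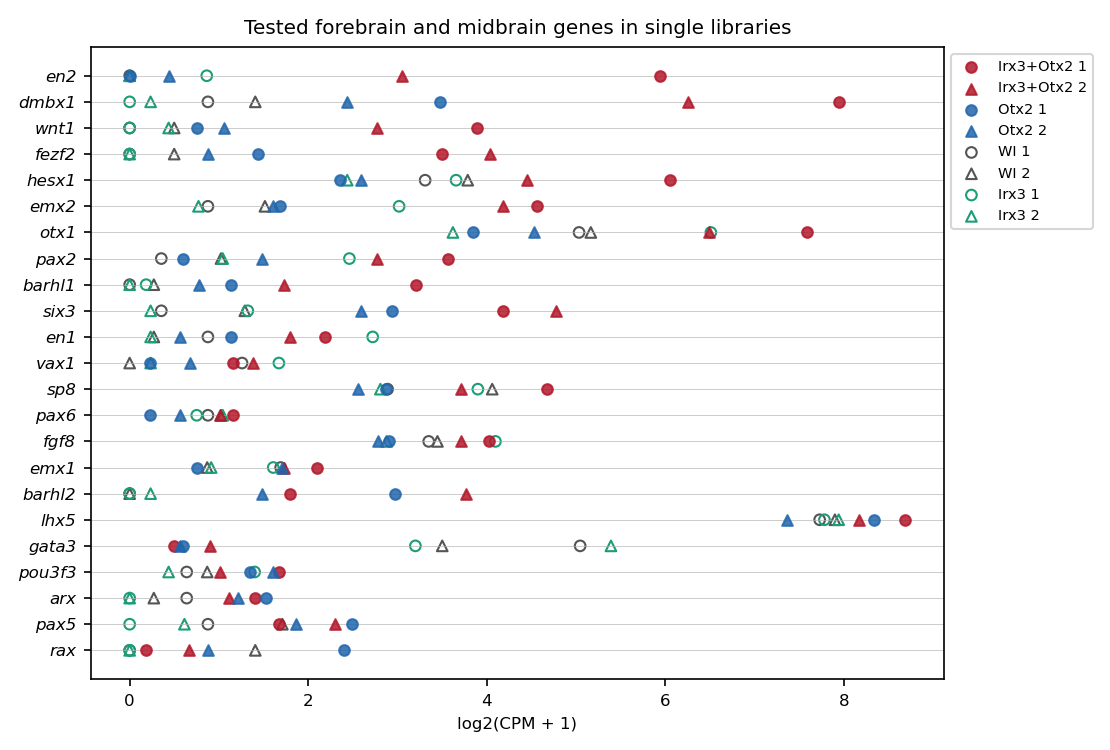
Level of the 23 tested forebrain and midbrain genes, as log2(CPM + 1), in single libraries; filled red symbols are Irx3+Otx2, filled blue symbols Otx2, open grey symbols WI and open green symbols Irx3, circles replicate 1 and triangles replicate 2. From en2 to emx1 both red symbols lie to the right of both blue symbols, while rax at the bottom lies to the left (0.137 and 0.582 CPM against 4.28 and 0.838 CPM).

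Other genes of the Iroquois and Otx families were uneven between the pair libraries. Apart from irx3, otx1 and otx2, 3 members were tested. Expression of irx2 was 190 and 29.4 CPM in the pair and 28.6 and 16.2 CPM in Otx2 (2.30, SE 0.75, p 0.010), with 102 and 76.2 CPM in WI. With Irx3+Otx2 2 alone the difference was 0.40. For irx1 the level was 122 and 13.8 CPM against 24.6 and 23.5 CPM, and for crx, an Otx-related gene, 169 and 14.4 CPM against 22.4 and 19.6 CPM. In both, Irx3+Otx2 1 was high and Irx3+Otx2 2 was under both Otx2 libraries. All 6 tested members had a change above 0, against 47.2% of all tested genes, with a median of 2.21. Without Irx3+Otx2 1 the median of the 6 was 0.996, which counts the introduced irx3 (7.58) and otx2 (1.60). Leaving out irx3 and otx2, whose mRNA was introduced, 4 members remain, also with a median of 2.21. That median holds for both pair libraries together. With Irx3+Otx2 2 alone, otx1 differed by 2.33 and irx2 by 0.40, while irx1 and crx were under both Otx2 libraries.

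Genes of the hindbrain and spinal cord were mixed. Higher in both pair libraries were nkx6-2, tlx3 and prdm13, all transcription factors of neural progenitors or early neurons; prdm13 passed the filter on low counts only through the groups compared. The homeobox gene nkx6-2 stood at 137 and 23.8 CPM against 2.57 and 4.67 CPM (4.45, SE 1.26; DESeq2 adjusted p 0.0073), and differed by 2.70 with Irx3+Otx2 2 alone. For tlx3, a homeobox gene of sensory and relay neurons, the level was 26.3 and 48.7 CPM in the pair, 6.33 and 2.51 CPM in Otx2, 0 in both WI libraries and 0 and 0.353 CPM in Irx3. Its difference from Otx2 was 3.09 (SE 0.70; DESeq2 adjusted p 0.013) and was 3.47 with Irx3+Otx2 2 alone. Outside the list, the progenitor gene gsx1 stood at 14.2 and 20.8 CPM against 1.03 and 1.2 CPM (3.95, SE 0.87; DESeq2 adjusted p 0.017), and the Hox gene hoxb6 at 18.6 and 73.3 CPM against 7.18 and 1.2 CPM (3.48, SE 1.12). The posterior gene cdx2 went the other way, at 11.1 and 21.2 CPM against 80.4 and 25.1 CPM (−1.70, SE 0.64, p 0.020). Without Otx2 1 that difference was −0.66. After the filter on the 12 other libraries the list had 18 genes with a median of 0.31. In both libraries 4 stood above (22.2%) and 4 below (22.2%), against 12.6% and 15.8% of all genes. At an unadjusted p under 0.05, 2 were higher (11.1%) and 1 lower (5.56%), against 3.36% and 1.03% of all genes. The median of the list over its tested genes was −0.27 without Irx3+Otx2 1.

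Pan-neural genes gave both signs. The neural progenitor gene sox2 stood at 574 and 302 CPM in the pair and at 184 and 178 CPM in Otx2 (1.27, SE 0.48, p 0.020), and 0.74 apart with Irx3+Otx2 2 alone. Its relative sox3 stood at 510 and 470 CPM in the pair, under the 693 and 821 CPM of Otx2 (−0.63, SE 0.33, p 0.078). The neural plate gene zic1 overlapped between groups, at 623 and 208 CPM against 268 and 290 CPM. The growth factor gene mdk (305 and 68.3 CPM against 78.7 and 66.0 CPM) and the repressor gene zeb2 (202 and 14.5 CPM against 20.01 and 30.6 CPM) had an unadjusted p under 0.05 and were high in Irx3+Otx2 1 alone. With Irx3+Otx2 2 alone, mdk differed by −0.08 and zeb2 by −0.80. In WI mdk had 257 and 196 CPM and zeb2 40.1 and 60.1 CPM. In contrast nrp1, a receptor of semaphorins and VEGF, was high in both, at 24 and 32.6 CPM against 8.55 and 2.87 CPM (2.32, SE 0.59, p 0.0019). Of 17 neural plate genes passing the filter on the 12 other libraries, 12 had a change above 0 (70.6%, against 46.7% of all genes), with a median of 0.46. An unadjusted p under 0.05 was reached by 4, all higher (23.5%, against 3.36% of all genes). In both libraries 3 stood above and 3 below (17.6% each, against 12.6% and 15.8% of all genes). Over the tested neural plate genes the median was −0.30 without Irx3+Otx2 1.

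At the neural border, where crest and placodes arise, 16 of 19 genes passing that filter had a change above 0 (median 0.43), 7 stood above in both libraries and 1 below, and 5 had an unadjusted p under 0.05, all higher. Over all genes passing it, 46.7% had a change above 0, 12.6% stood above and 15.8% below. At an unadjusted p under 0.05, 3.36% of them were higher and 1.03% lower. Over the tested border genes the median was 0.47 without Irx3+Otx2 1 and 0.90 without Irx3+Otx2 2. The crest gene tfap2b stood at 16.4 and 39.98 CPM against 8.55 and 9.09 CPM (1.67, SE 0.50, p 0.0055). For snai1, a repressor active in crest and mesoderm, the level was 118 and 38.2 CPM against 19 and 19.3 CPM (2.03, SE 0.60, p 0.0050), and the difference was 0.999 with Irx3+Otx2 2 alone. The preplacodal gene foxi4.1 stood at 13.4 and 4.36 CPM against 1.03 and 0.359 CPM (3.72, SE 1.15; 2.69 with Irx3+Otx2 2 alone), which in both groups was under the 48.8 and 25.2 CPM of WI. Lower in both pair libraries were foxe3, a gene of the lens placode, at 0.958 and 0.145 CPM against 9.41 and 3.35 CPM (−3.46, and −5.25 with Irx3+Otx2 2 alone; it passed the filter only through the groups compared), and agr2, a gene related to cement gland genes. The level of agr2 was 2.33 and 0.582 CPM against 22.6 and 9.93 CPM (−3.45, SE 1.08, p 0.0072; −4.75 with Irx3+Otx2 2 alone), the lowest of the 12 changes named at the lower end. The 5 cement and hatching gland genes passing the filter had a median of 0.19, and they include the introduced otx2 (1.21). The others were krt18 (0.56), ag1 (0.19), dlx3 (−0.78) and agr2 (−3.45), so the sign of this median rests on otx2.

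Among organizer genes, the BMP antagonist gene chrd was higher by a similar amount in both pair libraries. It stood at 73.8 and 53.9 CPM in the pair and at 10.4 and 10.3 CPM in Otx2, against 1.95 and 2.68 CPM in WI and 3.42 and 2.12 CPM in Irx3. The groups lay apart by 2.62 (SE 0.45, p 5.7e-05; edgeR adjusted p 0.20; DESeq2 adjusted p 1.7e-06), and by 2.38 with Irx3+Otx2 2 alone. The BMP antagonist gene nog was high in 1 pair library only, at 7.94 and 63.97 CPM against 15.6 and 12.0 CPM. The kinase gene pkdcc.1 stood at 56.7 and 23.1 CPM against 16.6 and 15 CPM (1.34, SE 0.58, p 0.040), with 51.8 and 47.9 CPM in WI. With Irx3+Otx2 2 alone its difference was 0.55.

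The homeobox gene gsc, which defines the organizer, was at 9.31 and 2.04 CPM against 1.54 and 3.11 CPM, so its groups overlapped. The notochord homeobox gene not (noto) was lower in both pair libraries, at 17.9 and 25.9 CPM against 93.9 and 69.8 CPM (−1.90, SE 0.74, p 0.024). The antagonist gene cer1 had 4 counts over all 16 libraries and was not tested. The 15 tested organizer genes, which include irx3 and otx2, had a median of 1.21, with 5 above (33.3%) and 1 below (6.67%) in both libraries and 4 higher and 1 lower at an unadjusted p under 0.05. Over all genes passing the same filter, 12.6% stood above and 15.8% below, and 3.36% were higher and 1.03% lower at that p. The median of the 15 organizer genes was 0.60 without Irx3+Otx2 1 and 0.72 without Irx3+Otx2 2. Both values include irx3 and otx2. The median of 1.21 over the 15 genes and that of 0.72 are the change of otx2 itself. Part of the organizer counts is also set by the introduced mRNA. Without irx3 and otx2, 13 genes had a median of 1.21, with 3 above and 1 below. Of these 13, 3 were higher and 1 lower at an unadjusted p under 0.05. Medians of these 13 without single libraries were not taken.

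The BMP ligand gene bmp4 was at 50.8 and 39.8 CPM in the pair and at 78.8 and 51.9 CPM in Otx2, below the 180 and 122 CPM of WI in both groups (−0.53, SE 0.58, p 0.38). Its target ventx2.1 stood at 97.9 and 103 CPM against 199 and 147 CPM (−0.79, SE 0.34, p 0.036). A further target, id4, stood at 4.24 and 4.36 CPM against 0.855 and 1.08 CPM (2.12, SE 0.90, p 0.036), both groups under the 16.4 and 11.4 CPM of WI. Over 27 genes of the BMP pathway and its targets the median was −0.06, with 4 above (14.8%) and 8 below (29.6%) in both libraries, against 12.6% and 15.8% over all genes, and 3 were higher and 1 lower at an unadjusted p under 0.05, against 3.36% and 1.03%.

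Endodermal genes gave both signs. The 3 copies of sox17, the endodermal HMG-box gene, were higher. For sox17a the level was 30.7 and 9.31 CPM against 4.28 and 4.19 CPM (2.24, SE 0.50, p 0.00060; DESeq2 adjusted p 0.036), and with Irx3+Otx2 2 alone the difference was 1.13. The copies sox17b.1 and sox17b.2 differed by 2.54 and 2.18, or by 0.58 and 1.55 with Irx3+Otx2 2 alone, and are near-identical, so that the quantification could split reads between them. The pioneer factor gene foxa1 stood at 5.89 and 8.43 CPM against 1.37 and 1.2 CPM (2.47, SE 0.65, p 0.0022), while Irx3 alone had 5.6 and 3 CPM.

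Lower were mixer, a homeobox gene of the endoderm and its border with mesoderm, and gdf3, a TGF-β ligand gene. Expression of mixer was 0.684 and 1.16 CPM in the pair and 6.33 and 8.02 CPM in Otx2 (−2.94, SE 0.62; DESeq2 adjusted p 0.029), and gdf3 stood at 2.60 and 5.23 CPM against 12.7 and 20.2 CPM (−2.07, SE 0.68). In WI mixer was at 1.39 and 0.62 CPM. Over 20 endoderm genes the median was −0.03. At an unadjusted p under 0.05, 4 were higher (20%) and 2 lower (10%), against 3.36% and 1.03% of all genes. In both libraries 5 stood above (25%) and 4 below (20%), against 12.6% and 15.8% of all genes.

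The 28 mesoderm genes had a median of −0.13, 7 above (25%) and 9 below (32.1%) in both libraries, against 12.6% and 15.8% over all genes, and 3 higher and 3 lower at an unadjusted p under 0.05, against 3.36% and 1.03%. The paraxial protocadherin gene pcdh8, which acts in convergence and extension, was higher in both libraries, at 39.2 and 44.9 CPM against 8.72 and 5.26 CPM. Its difference was 2.59 (SE 0.57, p 0.00053; DESeq2 adjusted p 0.0029) and 2.69 with Irx3+Otx2 2 alone. The Notch-pathway repressor hes7.1 stood at 229 and 339 CPM against 67.9 and 61.0 CPM (2.14, SE 0.92, p 0.038). The pan-mesodermal gene t (tbxt) was lower in level, at 2.60 and 3.2 CPM against 11.1 and 8.62 CPM, with a difference of −1.76 (SE 0.98, p 0.098). The lateral plate gene foxf1 had 0 counts in the pair and 9 in Otx2, so that the pair held at most 0.507 times the level of Otx2 by the exact 95% interval from counting error. The ligand gene fgf4 had 0 against 4 counts.

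Wnt genes showed opposite signs within the pathway. The Wnt-responsive zinc finger gene sp5 stood at 41.1 and 27.6 CPM in the pair, 5.13 and 2.03 CPM in Otx2 and at most 1.67 CPM in WI and Irx3. Its difference from Otx2 was 3.27 (SE 0.67, p 0.00031; DESeq2 adjusted p 0.00056). Of the Wnt ligand genes, wnt11b and wnt5b were lower in both pair libraries, wnt11b at 2.19 and 11.5 CPM against 24.3 and 24.9 CPM and wnt5b at 19.6 and 35.5 CPM against 62.1 and 64.0 CPM. With Irx3+Otx2 2 alone wnt11b differed by −1.097 in place of −1.85. The groups overlapped for wnt5a, at 0.548 and 3.78 CPM against 3.42 and 4.79 CPM, and for wnt4, at 1.51 and 0.872 CPM against 1.37 and 2.51 CPM. A second Wnt11 gene, wnt11-like.1, stood at 7.12 and 17.2 CPM against 48.1 and 32.8 CPM (−1.73, SE 0.56). The Wnt receptor ubiquitin ligase gene znrf3 differed by −1.02 (SE 0.40, p 0.024), and by −0.57 with Irx3+Otx2 2 alone. Of 31 genes of the Wnt pathway passing the filter on the 12 other libraries, 4 stood above (12.9%) and 10 below (32.3%) in both libraries, with a median of −0.17, where all genes gave 12.6% and 15.8%. In the FGF pathway the feedback phosphatase genes dusp6 (20.9 and 43.5 CPM against 81.2 and 55.0 CPM) and dusp4 (18.9 and 27.6 CPM against 38.1 and 42.8 CPM) were lower in both libraries. Their differences were −1.08 (SE 0.43, p 0.027) and −0.80 (SE 0.35, p 0.042), or −0.65 and −0.55 with Irx3+Otx2 2 alone. The groups overlapped for dusp5 (69.0 and 119 CPM against 95.1 and 77.2 CPM) and for the feedback genes spry1 and spry2. Higher in both pair libraries were fgf8 (15.3 and 12.1 CPM against 6.50 and 5.86 CPM), fgf2 and spred1. Over 24 FGF genes 3 stood above (12.5%) and 9 below (37.5%), where all genes gave 12.6% and 15.8%, with a median of −0.37.

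Of the genes of neuronal differentiation some were higher and some lower, many at low counts. More abundant was myt1, at 247 and 53.5 CPM against 59.3 and 12.3 CPM, with 258 and 212 CPM in WI. Its difference was 2.07 (SE 0.94, p 0.048), and 0.58 with Irx3+Otx2 2 alone. The groups overlapped for myt1, neurog2 (1.59) and hes5.1 (2.86), each with an unadjusted p under 0.05. The bHLH gene neurod1 had 50 counts in the pair and 1 in Otx2, 50.1 times as many (exact 95% interval from counting error, 8.58 to 2017), and it passed the filter only through the groups compared. The zinc finger gene insm1, of early neuronal and endocrine cells, stood at 17.1 and 7.27 CPM against 1.54 and 2.63 CPM (2.52, SE 0.58; DESeq2 adjusted p 0.036; 1.77 with Irx3+Otx2 2 alone), and WI and Irx3 held 9.18 to 23.8 CPM. The Notch ligand gene dll1 stood at 20.5 and 6.54 CPM against 4.28 and 3.71 CPM (1.76, SE 0.70, p 0.026; 0.71 with Irx3+Otx2 2 alone), and dlc overlapped, at 4.52 and 5.82 CPM against 3.76 and 9.09 CPM. Both groups lay under WI for dll1 (84.99 and 57.2 CPM in WI) and for dlc (95.9 and 80.3 CPM in WI). The endocrine bHLH gene neurog3 was lower in level, at 1.37 and 0.727 CPM against 5.64 and 5.98 CPM (−2.44, SE 0.80). The 25 genes of the Notch pathway and neurogenesis passing the filter on the 12 other libraries had a median of 0.09. At an unadjusted p under 0.05, 4 were higher (16%) and 1 lower (4%), against 3.36% and 1.03% of all genes.

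Genes of the surface ectoderm mostly overlapped between the groups. The epidermal genes foxi4.2 (160 and 138 CPM against 209 and 120 CPM) and tfap2a (177 and 142 CPM against 193 and 69.4 CPM) overlapped, and both groups lay under WI, where foxi4.2 had 995 and 931 CPM. Over 25 non-neural ectoderm genes the median was −0.12. In both libraries 2 stood above (8%) and 4 below (16%), near the 12.6% and 15.8% of all genes. Of the 25, cebpb alone had an unadjusted p under 0.05 (4%, against 3.36% of all genes higher). It stood at 76.2 and 86.8 CPM against 37.8 and 47.0 CPM (0.94, SE 0.33). Genes of multiciliated cells and ionocytes had the lowest median of the lists, −0.89. That median was −1.46 without Irx3+Otx2 1 and −0.69 without Irx3+Otx2 2, and over 13 settings it ran from −1.46 to −0.43. Of these 10 genes 0 were higher, against 46.7% of all genes. The ciliogenesis regulator foxj1 stood at 9.86 and 10.8 CPM in the pair and at 51.1 and 27.4 CPM in Otx2 (−1.93, SE 0.64, p 0.010), against 142 and 65.5 CPM in WI. Of these 10 genes 6 stood below in both libraries (60%, against 15.8% of all genes). An unadjusted p under 0.05 was reached by foxj1 alone (10%, against 1.03% of all genes lower). In bulk samples fewer cells of a type and less RNA per cell cannot be told apart. Counts for 3 further lists at an unadjusted p under 0.05 stand against 3.36% of all genes higher and 1.03% lower. Of 17 pluripotency genes (median −0.22), 1 was higher and 1 lower (5.88% each). Of 21 cadherin, protocadherin and ephrin genes (median 0.17), 2 were higher (9.52%) and 0 lower. Of 24 stress and cell death genes (median 0.04), 0 were higher and 0 lower.

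**Figure D3:**
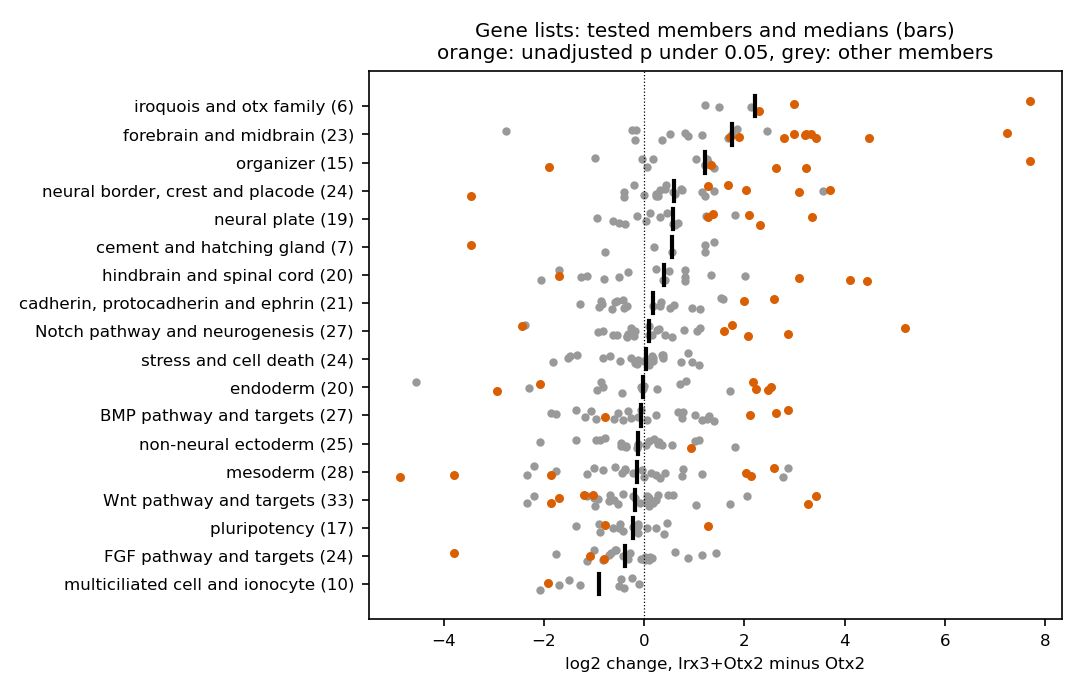
Log2 change of every tested member of 18 gene lists, Irx3+Otx2 minus Otx2 (horizontal axis), with the number tested in brackets; vertical bars mark medians and orange points genes with an unadjusted p under 0.05. The medians run from −0.89 for multiciliated cells and ionocytes to 1.76 for forebrain and midbrain and 2.21 for the Iroquois and Otx family, which holds the introduced irx3 and otx2; genes may stand in more than 1 list.

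The remaining genes with symbols that DESeq2 called were of other functions. Highest was crisp1, a cysteine-rich secretory protein gene, at 14.6 and 15.3 CPM in the pair and 0.171 and 0.479 CPM in Otx2 (5.37, SE 1.02). The gene crabp2, which encodes a retinoic acid binding protein, stood at 266.1 and 172 CPM against 32.2 and 33.5 CPM (2.74, SE 0.52; DESeq2 adjusted p 0.00034), with 116 and 137 CPM in Irx3 alone. The endocytic adaptor gene epn1 stood at 115 and 68.5 CPM against 22.7 and 22.6 CPM (2.02, SE 0.37). Its level was 91.1 and 84.7 CPM in WI and 81.3 and 64.8 CPM in Irx3, so the Otx2 libraries were low and the pair was near WI. The zinc finger gene znf367 stood at 53.8 and 20.2 CPM against 4.28 and 5.5 CPM (2.91, SE 0.60; 2.04 with Irx3+Otx2 2 alone). The secreted glycoprotein gene adamtsl4 (27.4 and 3.2 CPM against 0.342 and 0.598 CPM) and the laminin gene lamb1 (71.0 and 9.31 CPM against 7.52 and 3.83 CPM) were higher mainly in Irx3+Otx2 1, and differed by 2.68 and 0.72 with Irx3+Otx2 2 alone. An unnamed locus, LOC100495470, had 1 count in the pair and 456 in Otx2, with 51.0 and 18.9 CPM in the Otx2 libraries and at most 0.353 CPM in WI and Irx3. Of the 26 genes that DESeq2 called, 18 had symbols.

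At the lower end, genes beyond those described were rpe65, pm20d1, dok5, foxh1.2 and stard13. The retinoid isomerase gene rpe65 stood at 1.37 and 1.89 CPM against 15.2 and 5.38 CPM (−2.64, SE 1.13), or −1.73 without Otx2 1. The enzyme gene pm20d1 stood at 3.29 and 8.58 CPM against 26.7 and 34.5 CPM (−2.37, SE 0.72). For foxh1.2, a gene named as a copy of the nodal cofactor foxh1, the level was 18.1 and 16.6 CPM against 64.5 and 48.8 CPM (−1.71, SE 0.46, p 0.0027). The signalling adaptor gene dok5 and the gene stard13 differed by −1.79 (SE 0.47) and −1.70 (SE 0.69); without Otx2 1 that of stard13 was −1.13. None of these 5 genes was called by DESeq2.

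**Figure D4:**
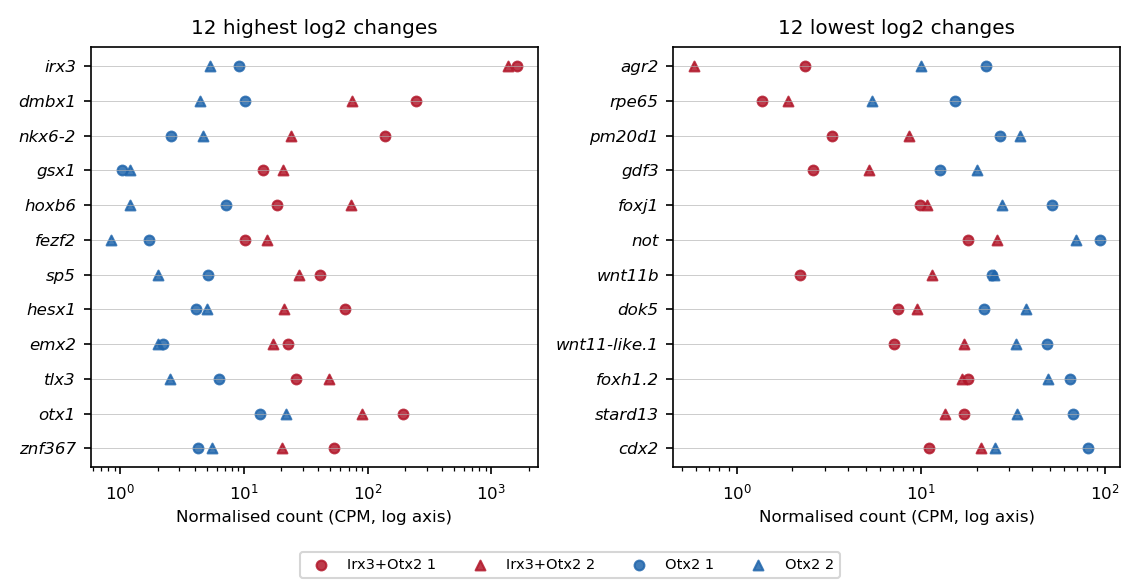
Level of 12 genes at the upper and 12 at the lower end of the log2 changes, among genes with symbols, a mean log2 CPM of at least 2, an unadjusted p under 0.05 and no overlap, as CPM on a log axis; red symbols are Irx3+Otx2 and blue symbols Otx2, circles replicate 1 and triangles replicate 2. The groups do not overlap for any gene, which the choice fixed; irx3 stands far right on the left side, at 1618 and 1363 CPM.

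Whether Irx3 did something else beside Otx2 than on its own was tested by the interaction, the change from Otx2 to the pair minus the change from WI to Irx3. EdgeR called 0 of 14176 genes (0%; smallest adjusted p 1), with 253 at an unadjusted p under 0.05 (1.78%), 152 of them above 0 and 101 below. DESeq2 called 7, of which dmbx1 and pcdh8 have symbols. For pcdh8 the Irx3 libraries held 1.23 and 0.883 CPM and the WI libraries 2.51 and 3.51 CPM, so that it was higher in the pair than in Otx2 and not higher in Irx3 than in WI; the interaction was 4.08 (log2, p 0.00039). The fitted interactions of dmbx1 (8.18), fezf2 (6.84) and vegfb (6.56), the angiogenic ligand gene, rest on levels near 0 in WI and Irx3. Among genes with symbols that had an unadjusted interaction p under 0.05 and averaged 2 or more in log2 CPM, the lowest interactions were those of agr2 (−3.48), c7 (−3.13), rdh13 (−2.89) and not (−2.42). The complement gene c7 was at 119 and 28.4 CPM in Irx3 against 12.0 and 3.51 CPM in WI, and at 3.42 and 11.5 CPM in the pair against 9.58 and 4.07 CPM in Otx2. The notochord gene not was at 74.3 and 15.2 CPM in Irx3 and 22.6 and 39.7 CPM in WI. The contrast with Irx3 also carries its uneven irx3 level of 1862 and 200 CPM.

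The pair libraries differed in which genes lay farthest above Otx2. Far higher in Irx3+Otx2 1 than in Irx3+Otx2 2 were, for example, zeb2, with differences from Otx2 of 3.01 and −0.80, and irx2, with 3.12 and 0.40. Conversely hoxb6 differed from Otx2 by 2.2 in Irx3+Otx2 1 and 4.15 in Irx3+Otx2 2, and tfap2b by 0.92 and 2.18. Close to even were crisp1 (5.36 and 5.4), pcdh8 (2.51 and 2.69), chrd (2.85 and 2.38) and gsx1 (3.67 and 4.19). Lower by similar amounts in both were not (−2.16 and −1.66), mixer (−3.33 and −2.61) and foxh1.2 (−1.62 and −1.77). With Irx3+Otx2 2 alone, edgeR had 0 calls and 196 genes at an unadjusted p under 0.05, 107 higher and 89 lower, where the full comparison had 510 and 158.

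**Figure D5:**
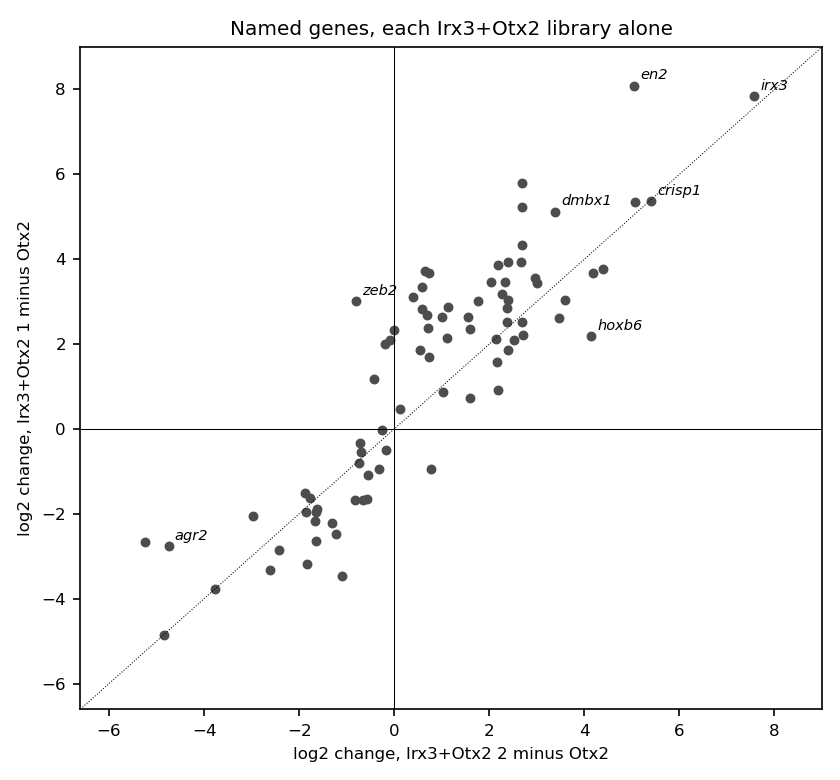
Fitted log2 change of the named genes against both Otx2 libraries, for Irx3+Otx2 2 alone (horizontal axis) and Irx3+Otx2 1 alone (vertical axis); the dotted line marks equal changes. Genes such as crisp1 lie near the line, zeb2 lies at 3.01 on the vertical and −0.80 on the horizontal axis, and hoxb6 lies under the line at 2.2 and 4.15.

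In explant cells of the same stage, summed over 25 cells per library, several of these genes were unequal between regions. They are examples without a test, and they include genes higher and genes lower in the pair. The cells came in 2 libraries named AC and 2 named BL, of 755591 to 3002900 reads in genes, and the labels do not spell out BL. Expression of chrd was 2.00 and 0 CPM in AC against 317 and 975 CPM in BL, and sox17a stood at 0.666 and 7.12 CPM against 154 and 311 CPM. For snai1 the level was 25.3 and 7.12 CPM in AC and 298 and 541 CPM in BL. The gene wnt11b, lower in the pair, was also at the higher level in BL, at 20.6 and 41.0 CPM in AC against 385 and 253 CPM. The genes sp5, hesx1, pcdh8, mixer and gsx1 were listed at 0 in all 4 sums.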

How the data were processed

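Per the labels' protocols, total RNA of animal caps at stage 10.5 was depleted of ribosomal RNA (RiboErase), made into KAPA HyperPrep libraries and read from both ends (NextSeq 500). Per the file headers, the authors deposited estimated counts and TPM per target; the quantifier, build and annotation are not given in the sources used here, and the submitters' processing notes name STAR 2.5.0. Explant files hold counts of reads per gene and cell, as deposited by the authors. Estimated counts were rounded (16.6% were not whole). All 16 bulk libraries entered one edgeR 4.0.16 fit in R 4.3.3 (filterByExpr with a minimum count of 10, TMM, robust quasi-likelihood, group as the only term), and 14176 of 26550 targets were tested, 4399 of them without a gene symbol. DESeq2 1.42.0 was an alternative. The tests were also run on simulated counts with known changes, whose outcome is not given here. Both simulated pair libraries had the same expected level per gene, so an outlying library such as Irx3+Otx2 1 was not modelled. Total counts limit precision, and counting intervals cover counting error only.

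Named were the introduced genes, genes with symbols called by DESeq2, list genes with an unadjusted p under 0.05, a few set names, and the 4 highest and 4 lowest interactions. Of the DESeq2 calls without symbols only LOC100495470 was named. The list genes nova1 (3.35) and pcdh18 (2.00) also met the rule, were higher in both pair libraries and are not described above. Also named were the 12 highest and 12 lowest changes among genes with symbols, a mean log2 CPM of at least 2, an unadjusted p under 0.05 and no overlap. Other genes named (rax, lhx5, pax5, barhl2, gata3, pou3f3, arx, nog, irx1, crx, krt8, krt18, ag1, gata2, dlx3, foxi2, cebpa, wnt4, wnt5a, dusp5, spry1, spry2, fgf8, fgf2, spred1), and list medians without irx3 and otx2, were added after their values were seen. The members, lists and tests were chosen with earlier results of these data known. No sequence is printed, and chromatin files were not used here.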

Additional observations from a re-analysis of the deposited data

How the results depend on the processing

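Against the 0 calls of the main comparison, DESeq2 gave 26 (22 higher, 4 lower) and testing without a filter on low counts 415 (332 higher, 83 lower), which held all 26. Leaving out 1 library in turn gave 0 to 20 calls; the 20 (19 higher, 1 lower) came without Irx3+Otx2 2. The interaction, with 0 calls, had 7 with DESeq2 (5 higher, 2 lower), 162 without a filter (117 higher, 45 lower) and 0 to 2 without single libraries, the 2 without WI 1. RLE factors, fewer libraries in the fit, a fit without the robust option and total-count scaling (added after seeing the data) gave 0 calls in both. Scaling by total counts moved the unadjusted split from 510 higher and 158 lower to 290 and 168. Same-numbered libraries of the pair and Otx2 did not pair (correlation −0.14). Over 28 pairs of groups the correlation ran from −0.24 to 0.73, the highest for Eomes with Otx2, and was over 0.1 in 12. With the replicate number as a block 0 genes were called in either comparison, and with crossed numbers 0. At an unadjusted p under 0.05 the block gave 895 and 382 genes, against 668 and 253 without it. With the library set, the run of file-name numbers, as a term, 0 were called and 237 had an unadjusted p under 0.05.

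Of 1173 combinations of gene and setting, over 84 named genes, 1085 kept direction and side of the threshold, 75 gained a call and 13 changed sign; with 0 calls in the main comparison none could be lost. With the library set as a term, zic1 was −0.42, zeb2 −0.80, mdk −0.082 and gsc −0.21. Of the compared libraries only Irx3+Otx2 1 is outside the last run. That term therefore leaves nearly the same comparison as leaving out Irx3+Otx2 1, and it is not a second check. Leaving out 1 library in turn, zic1 ran from −0.42 to 1.18, zeb2 from −0.80 to 3.01, mdk from −0.082 to 2.1 and gsc from −0.20 to 2.00, each lowest without Irx3+Otx2 1. Likewise foxi4.2 ran from −0.47 to 0.30, tfap2a from −0.26 to 1.19, dlc from −0.83 to 0.47 and c7 from −0.95 to 0.84; of these foxi4.2 changed sign without Otx2 1, tfap2a and dlc without Otx2 2, and c7 without Otx2 2 (−0.36) and without Irx3+Otx2 2. The cause was not tested. Depth limits genes such as en2, neurod1, foxf1 and fgf4, which had 0 to 9 counts in one group.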
